A study of Mus musculus with 4 samples.

Results

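INO80 occupancy was examined at 6 mouse genes of spermatogonial growth factor signalling. They are the receptor gene Kit and its ligand gene Kitl, the receptor gene Ret, the ligand gene Gdnf, and the co-receptor genes Gfra1 and Gfra2. The genes were chosen by name, as 6 of 21887 protein-coding genes in the RefSeq gene table of GRCm38.p6. Each was described by every INO80 peak within 5 kb of its annotated extent in each replicate and by its rows in the peak set that the authors kept from both replicates, called the reproducible set here. That gave 5 of 5123 peaks in replicate 1, 7 of 7836 in replicate 2 and 3 of 2847 in the reproducible set. INO80 is the ATPase of a chromatin remodelling complex that moves nucleosomes, and it was located by chromatin immunoprecipitation and sequencing (ChIP-seq).

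There were 2 INO80 libraries and 2 input libraries of sonicated chromatin, from first-wave spermatocytes at early zygotene of DBA/2J x C57BL/6J F1 mice. Every animal, including those behind the input, had received fertilysin for 7 days from day 2 after birth and retinoic acid on day 9. Spermatocytes were purified 8 days later over 28% Percoll, so other testis cells may have remained. Nothing in the labels says how many animals a library held, so the spread between replicates may be technical. The INO80 libraries held 98.1 M and 82.6 M uniquely mapped reads in replicates 1 and 2, and the inputs held 70.4 M and 39.6 M. No peak list of the inputs was used here, so input enters only through the fold that the peak caller gave, and the sources used here do not give which control that was. With 2 samples of 1 group there is no test between conditions, and all results at the 6 genes are descriptions. In bulk chromatin, weak occupancy in many cells and strong occupancy in a few cannot be told apart.

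KIT is a receptor tyrosine kinase that differentiating spermatogonia switch on, and its ligand, stem cell factor from Kitl, is made by Sertoli cells, the somatic cells of the tubule. GDNF is likewise secreted by somatic cells around the stem cells and holds spermatogonia in self-renewal. It binds a co-receptor of the GFRA family, which then engages the kinase RET, and both receptors feed the Ras-MAPK and PI3K-AKT cascades.

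The sequences just before the start sites are shown because the peaks lay on or beside them, and they let the promoter DNA of the genes be compared. The RefSeq promoter table of GRCm38.p6 held 6 starts for 4 of the 6 genes, Kit, Kitl, Gdnf and Gfra1. The 250 bases before 5 of the starts are printed 5′ to 3′ on the gene's own strand, with each CpG dinucleotide in capitals. The Kit window is the one whose start fits the authors' distance. Its other start lay 4 bases upstream.
Kit, chr5:75574741-75574990, plus strand: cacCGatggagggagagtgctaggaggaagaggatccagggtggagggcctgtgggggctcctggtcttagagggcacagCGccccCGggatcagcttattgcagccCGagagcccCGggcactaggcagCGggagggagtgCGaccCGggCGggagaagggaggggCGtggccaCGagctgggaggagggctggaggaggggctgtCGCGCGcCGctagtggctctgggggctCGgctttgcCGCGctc
Kitl, chr10:100015571-100015820, plus strand: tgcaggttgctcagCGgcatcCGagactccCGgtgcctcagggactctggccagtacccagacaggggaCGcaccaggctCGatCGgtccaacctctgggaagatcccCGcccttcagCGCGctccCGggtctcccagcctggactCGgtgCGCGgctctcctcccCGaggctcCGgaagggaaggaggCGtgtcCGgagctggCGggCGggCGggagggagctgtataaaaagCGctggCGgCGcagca
Gdnf start 1, chr15:7809798-7810047, plus strand: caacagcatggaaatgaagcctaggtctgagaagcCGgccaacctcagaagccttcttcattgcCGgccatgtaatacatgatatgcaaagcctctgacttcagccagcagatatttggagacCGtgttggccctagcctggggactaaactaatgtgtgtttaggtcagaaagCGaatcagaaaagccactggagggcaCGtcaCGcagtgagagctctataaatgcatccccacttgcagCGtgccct
Gdnf start 2, chr15:7813477-7813726, plus strand: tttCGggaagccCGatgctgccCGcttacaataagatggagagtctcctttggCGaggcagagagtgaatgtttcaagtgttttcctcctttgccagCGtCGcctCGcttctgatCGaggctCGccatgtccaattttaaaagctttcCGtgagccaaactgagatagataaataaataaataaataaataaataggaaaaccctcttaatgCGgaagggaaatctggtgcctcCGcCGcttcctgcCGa
Gfra1, chr19:58455399-58455648, minus strand: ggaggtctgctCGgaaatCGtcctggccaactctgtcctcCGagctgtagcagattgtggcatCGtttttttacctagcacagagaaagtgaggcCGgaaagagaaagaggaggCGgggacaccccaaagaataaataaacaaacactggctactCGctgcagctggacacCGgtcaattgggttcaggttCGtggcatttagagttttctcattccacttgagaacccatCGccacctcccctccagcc

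The windows differed in CpG number. Kitl had 23 CpGs and a GC content of 69.2%, Kit had 18 and 70.8%, and Gdnf start 2 had 14 and 46.8%. Gfra1 had 10 CpGs and 52.4% GC, and Gdnf start 1 had 7 and 50.8%. The median was 20.0 CpGs over 2144 upstream windows under a reproducible peak and 10.0 over all 21263 windows of protein-coding genes. The Kit and Kitl windows, both wholly under a reproducible peak, therefore stood in the upper part of all windows. Against the median of windows under a reproducible peak, Kit lay below and Kitl above. More CpGs were found in 26.1% of all windows for Kit and in 15.5% for Kitl. For Gdnf start 1 the share was 55.6%, and for Gfra1 47.5%. For Gdnf start 2, which lay under a peak in each replicate but under no reproducible peak, it was 36.7%, so this window too had more CpGs than the median window.

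**Figure D1:**
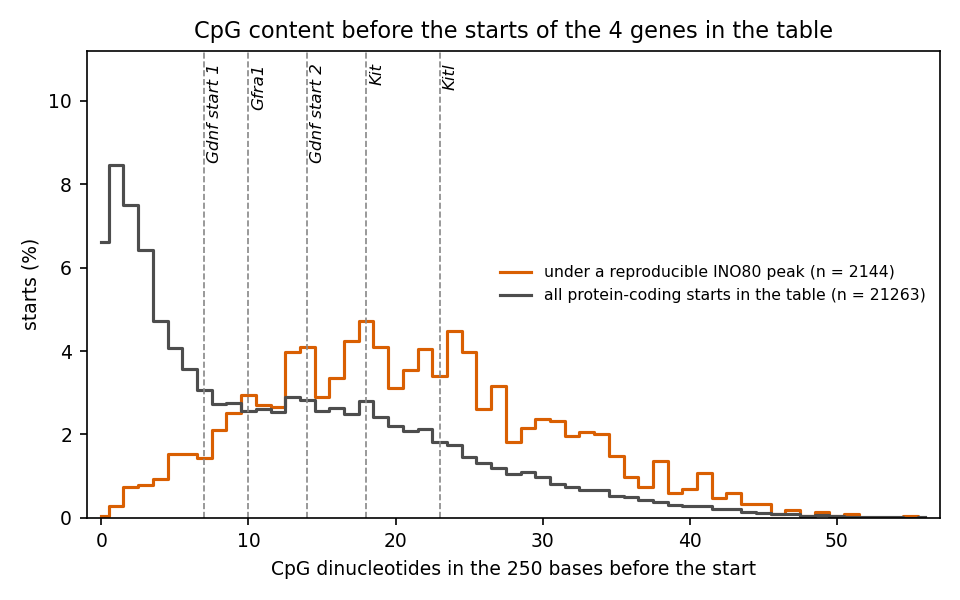
Share of start sites (y axis, %) by the number of CpG dinucleotides in the 250 bases before the start (x axis), for starts under a reproducible INO80 peak (orange, 2144) and all protein-coding starts in the table (grey, 21263). Dashed lines mark the printed windows: Kit with 18 and Kitl with 23 CpGs lie to the right of Gdnf start 1 (7), Gfra1 (10) and Gdnf start 2 (14).

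Of the 6 genes, 3 carried a reproducible INO80 peak within 1 kb of the transcription start site (TSS), namely Kit, Kitl and Ret. Over all protein-coding genes this share was 9.93%. A replicate 1 peak lay within 5 kb of 4 of the 6 genes, against 26.0% of all genes, and a replicate 2 peak within 5 kb of all 6, against 35.7%. Kit, Kitl, Ret and Gdnf had a peak in both replicates, 4 of 6, against 24.0% of all genes. Longer genes offer more room for a peak, and the 6 genes span 27533 to 220366 bp while the median protein-coding gene spans 17169 bp. Among the 7164 genes within that length range, 30.9% had a peak in both replicates. No other protein-coding gene lay within 5 kb of any of these peaks.

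Kit, the stem cell factor receptor gene (chromosome 5, 75574987 to 75656722), had the highest fold of the 6 in both replicates. Its peak had a fold of 4.81 in replicate 1 and 7.22 in replicate 2, and ranked 395th of 5123 and 317th of 7836 peaks by fold. The replicate 1 peak began 490 bp before the gene's start and ended 1017 bp inside it, a width of 1508 bp. The replicate 2 peak held all of it, running over 2562 bp to 1872 bp inside the gene. By its centre the authors placed the reproducible peak (75574271 to 75577224) in intron 1 of 20, 756 bp from the TSS, although it also covered the promoter. The next peak in either direction was at least 401 kb away, so the rest of the 81736 bp gene held no peak in either list.

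Kitl, the gene of the KIT ligand (chromosome 10, 100015615 to 100100416), had a fold of 3.95 in replicate 1 and 4.88 in replicate 2. It stood at nearly the same place in both lists, within the top 21.8% by fold in replicate 1 and the top 22.1% in replicate 2. The replicate 1 peak was 1051 bp wide and the replicate 2 peak 2401 bp. The replicate 2 peak reached 1214 bp before the low-coordinate end of the gene. The authors' distance places the TSS a little inside that end, at 100015821. The reproducible peak (100014330 to 100017272) was centred 20 bp upstream of the TSS in the promoter class. It was almost as wide as that of Kit, 2943 bp against 2954 bp at Kit. Both were in the top 17.6% of reproducible peaks by width. No other peak of replicate 1 lay within 751 kb of it, and none of replicate 2 within 570 kb.

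Ret, the kinase subunit of the GDNF receptor (chromosome 6, 118151748 to 118197744), had a fold of 4.14 in replicate 1 and 6.04 in replicate 2. The authors' distance places its start at the high-coordinate end, at 118197744. In replicate 1 the peak lay wholly inside the gene, 97 to 1062 bp from the start. In replicate 2 it ran from 563 bp before the start to 1228 bp inside. The reproducible peak (118196276 to 118198319) was annotated by the authors as 5' UTR in exon 1 of 20, centred 447 bp downstream of the TSS, and at 2044 bp was the narrowest of the 3. Replicate 2 had a further peak 12596 bp beyond the other end of Ret, outside the 5 kb window, with a fold of 3.18 and within 5 kb of Csgalnact2.

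**Figure D2:**
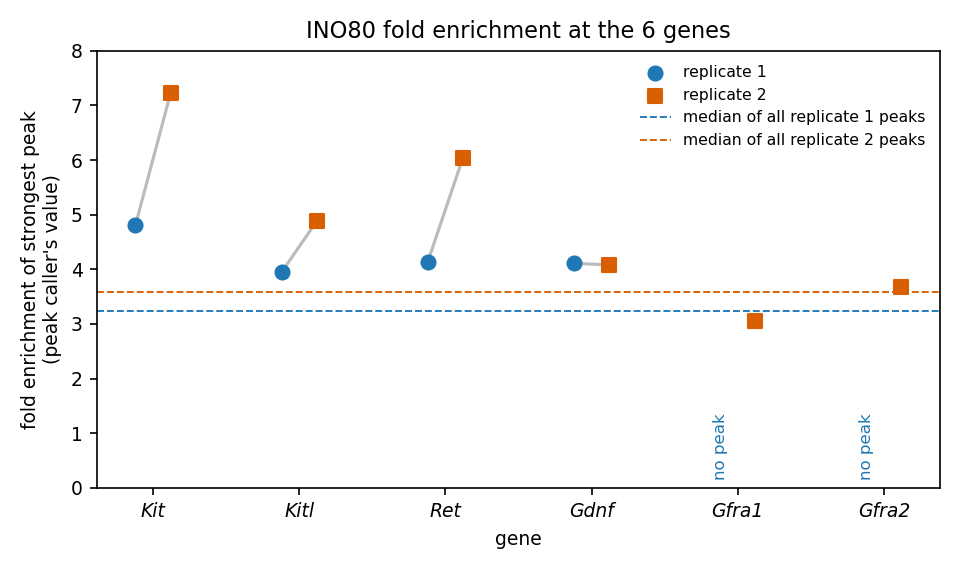
Fold enrichment (y axis, the peak caller's value) of the strongest INO80 peak within 5 kb of each gene (x axis) in replicate 1 (blue circles) and replicate 2 (orange squares), with dashed lines at the medians of the whole lists (3.23 and 3.59). Kit is highest in both replicates, Gdnf stands at 4.11 and 4.08, and Gfra1 and Gfra2 have no replicate 1 peak.

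Gdnf, the ligand gene (chromosome 15, 7810048 to 7837580), differed in shape from the other genes. In replicate 1 it carried a pair of separate peaks, the first 157 to 1140 bp inside the gene with a fold of 4.11 and the second 3158 to 3741 bp inside with a fold of 2.58. The second replicate 1 peak held the whole of the window printed as start 2 above, whereas neither covered the window of start 1. In replicate 2 a single peak of 4186 bp with a fold of 4.08 covered both starts, from 250 bp before the gene to 3935 bp inside. By width it ranked 157th of 7836, in the top 2.00%, while its fold stood in the top 36.9%. Replicate 2 also had a weak peak of 1947 bp (fold 2.58) that ended 3908 bp before the gene and lay inside the 5 kb window.

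Despite peaks in both replicates, Gdnf had no reproducible peak. Its strongest −log10 q was 8.35 in replicate 1 and 11 in replicate 2, against 7.55 and 14.6 at Kitl, which is in the set. Of 937 overlapping pairs of peaks with both q values at least as strong as at Gdnf, 926 (98.8%) were in the reproducible set and 11 were not, the Gdnf pair among them. The file of the set holds no rank or score per peak, so the criterion that left the pair out cannot be read from it.

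The co-receptor genes had a peak in replicate 2 alone. Gfra1, which encodes the main GDNF co-receptor of spermatogonial stem cells (chromosome 19, 58235581 to 58455946), had a fold of 3.05 there. That peak of 2429 bp ran from 166 to 2594 bp inside the high-coordinate end and held the 250 bases printed above. A second Gfra1 peak, with a fold of 2.93, lay 6737 bp beyond the other end and so outside the window. Gfra2, which encodes the preferred co-receptor of neurturin (chromosome 14, 70890107 to 70979840), had a replicate 2 fold of 3.67. Its peak of 2092 bp lay across the low-coordinate end of the gene, from 792 bp before it to 1299 bp inside. By fold among all 7836 replicate 2 peaks, the Gfra2 peak ranked 3710th and the Gfra1 peak 5472nd. Among the 2551 genes with a peak in replicate 2 alone the median fold was 2.97, and Gfra2 ranked 387th and Gfra1 1137th. Genes with a peak in both replicates had a median replicate 2 fold of 4.34. Replicate 2 had more peaks than replicate 1, so the absence of a peak in replicate 1 does not show that INO80 was absent from these genes.

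**Figure D3:**
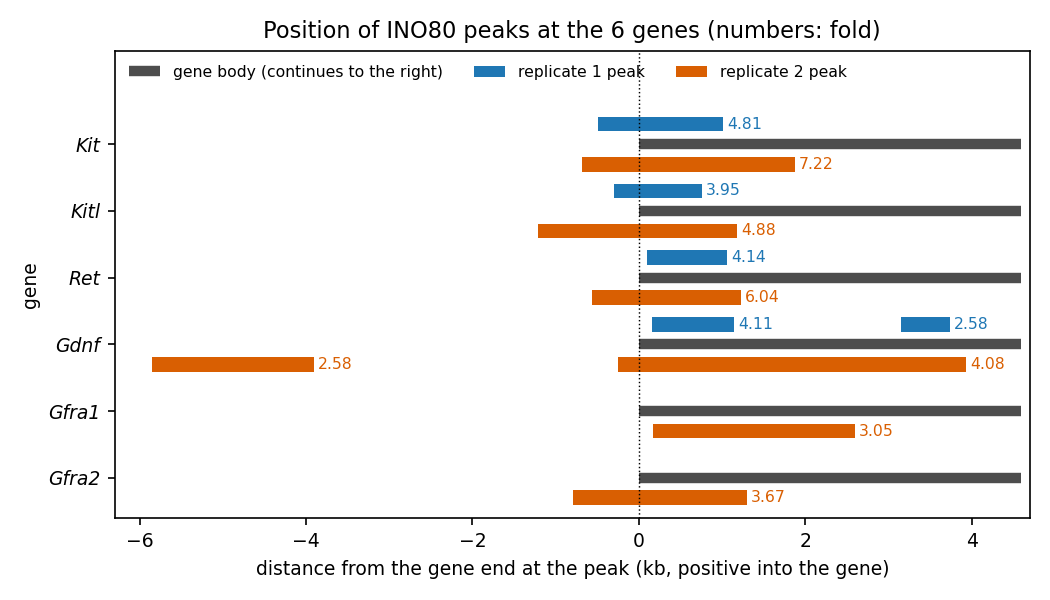
INO80 peaks within 5 kb of each gene, by distance from the gene end at which the peaks lie (x axis, kb, positive into the gene). Blue bars are replicate 1 peaks, orange bars replicate 2 peaks, numbers give the fold, and grey bars the gene body. Every replicate 1 peak lies within a replicate 2 peak, and Gdnf has 2 replicate 1 peaks under 1 wide replicate 2 peak.

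By mean fold over both replicates, the order was Kit, Ret, Kitl and Gdnf. Kit averaged 6.02 ± 1.70, Ret 5.09 ± 1.34, Kitl 4.42 ± 0.659 and Gdnf 4.09 ± 0.0172 (SD, n = 2 each). Neighbours in this order differed by less than the larger of their SDs. These SDs also hold the general shift in fold between the lists, a median replicate 2 over replicate 1 ratio of 1.29 over all genes with a peak in both. Within replicate 1 the order was Kit, Ret, Gdnf, Kitl, with Ret and Gdnf 4.14 and 4.11. Within replicate 2 it was Kit, Ret, Kitl, Gdnf, Gfra2, Gfra1. Kit and Ret were thus first and second in both lists, and Kitl and Gdnf changed places. Among the 5256 genes with a peak in both replicates, Kit ranked 356th by mean fold, Ret 920th, Kitl 1643rd and Gdnf 2168th, around a median fold of 3.84.

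The change in fold between replicates was not the same at the 4 genes. Replicate 2 over replicate 1 was 1.50 at Kit, 1.46 at Ret, 1.24 at Kitl and 0.994 at Gdnf. Over all 5256 genes the median ratio was 1.29, from 0.914 at the 5th to 1.82 at the 95th percentile, and 621 genes (11.8%) had a ratio below 1. Gdnf was therefore among the minority in which fold was not higher in replicate 2. Its folds belong to peaks of unlike extent, 984 bp in replicate 1 and 4186 bp in replicate 2. All 5 replicate 1 peaks lay wholly within a replicate 2 peak. The replicate 2 peak was 1.70 times as wide at Kit, 1.86 at Ret, 2.28 at Kitl and 4.25 at the first Gdnf peak, against a median of 1.63 over 4723 overlapping pairs.

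**Figure D4:**
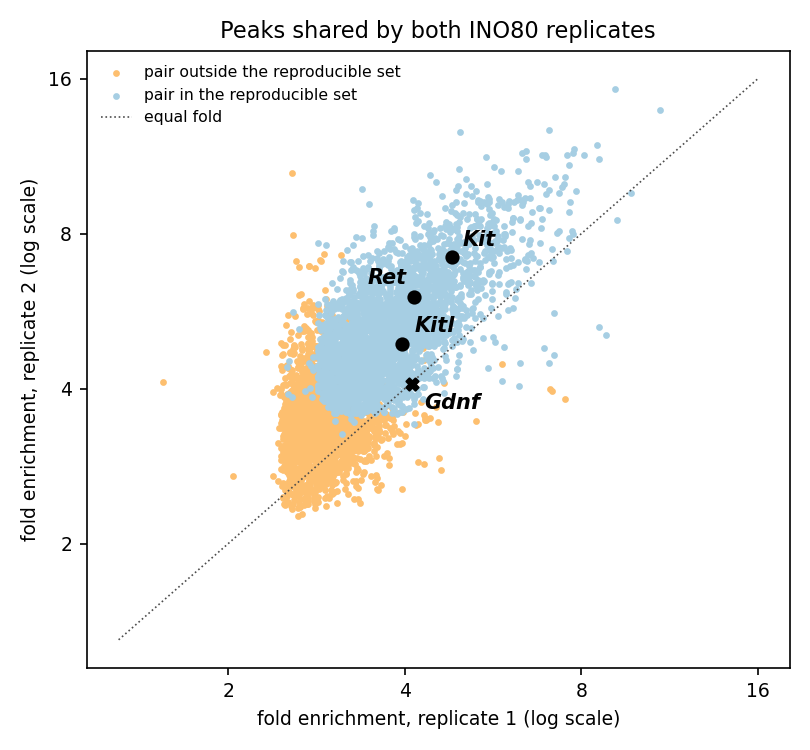
Fold enrichment in replicate 1 (x axis, log scale) and replicate 2 (y axis, log scale) of overlapping peak pairs, in the reproducible set (light blue) or outside it (light orange), with the dotted line at equal fold. Kit, Ret and Kitl (black circles) lie above the line within the reproducible set, and Gdnf (black cross) lies on the line at 4.11 and 4.08, outside the set.

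A search of the printed windows for short promoter motifs on both strands gave few matches. The GC box GGGCGG, bound by SP1-type factors, occurred at -102 from the start at Kit and at -143, -45 and -41 at Kitl, where the last pair overlap. It was in 69.3% of windows under a reproducible peak and in 42.6% of all windows, and was not in the Gdnf and Gfra1 windows. The TATA box TATAAA occurred at Kitl at -25 and at Gdnf start 1 at -31, in 5.27% of windows under a reproducible peak and in 11.6% of all windows. CCAAT occurred at Gdnf start 2 at -120 and at Gfra1 at -73, in 31.6% of windows under a reproducible peak and in 35.4% of all windows. AAGATGG, the core bound by YY1, a partner of the INO80 complex, occurred at Gdnf start 2 at -218, in 2.47% of windows under a reproducible peak and in 4.13% of all windows. The E-box CACGTG matched in none of the printed windows, and was in 9.24% of windows under a reproducible peak and 6.63% of all windows. These matches are letters in a window and were not tested as binding sites.

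The authors' deposited table of functional terms linked Kit, Kitl and Ret to other genes with reproducible peaks. It named Kit in 114 of 2291 terms, Ret in 86 and Kitl in 51, and 71 terms held at least 2 of them. These counts take in terms at any adjusted p. Of the 71 terms, 51 had an adjusted p under 0.05 in the authors' deposited table. In the authors' deposited table, transmembrane receptor tyrosine kinase activity held Kit and Ret among 23 genes, with a fold enrichment of 3.57 and an adjusted p of 7.08e-06. Neural crest cell migration held Kitl and Ret among 20 genes, with a fold of 3.46 and an adjusted p of 0.000125 in the authors' deposited table. In the authors' deposited table, melanogenesis held Kit and Kitl among 30 genes, with a fold of 2.55 and an adjusted p of 5.08e-05. The PI3K-Akt pathway also held both, among 67 genes, with a fold of 1.60 and an adjusted p of 0.00106 in the authors' deposited table. In the authors' deposited table, germ cell development and male gonad development, both with Kit and Kitl, had adjusted p of 0.404 and 0.264. Kit, Kitl and Ret are among the genes that these terms were computed from, so the terms are no independent evidence about them.

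Around the 6 genes, 7 lists held 132 further genes of both pathways. Of these 69 (52.3%) had a peak within 5 kb in both replicates, 75 in replicate 1 and 82 in replicate 2, against 24.0%, 26.0% and 35.7% of all protein-coding genes. By position, a reproducible peak lay within 5 kb of 47 of them, against 14.9% of all genes. The lists were drawn up with earlier results of these data known, and a peak near a gene can belong to its neighbour.

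Among 10 other ligands, co-receptors and alternative receptors of the GDNF family, 5 had a peak in both replicates and 4 had none. The share with a peak in both was 50.0%, against 24.0% of all protein-coding genes. Nrtn, which encodes neurturin, the ligand of GFRA2, had folds of 4.94 and 6.02 in replicates 1 and 2, with a 5' UTR peak on its own TSS. Artn, the gene of the ligand artemin, had folds of 4.16 and 5.11, and its reproducible peak was centred 2545 bp inside the gene in an exon. Gas1, which encodes a GFRA-related protein that binds RET, had folds of 3.43 and 6.56. Ncam1, an alternative GDNF receptor gene, had 3.36 and 6.32, with the peak centred 1627 bp from the TSS in an intron. Gfra4 had 4.88 and 6.98, but the authors assigned that peak to the neighbouring microRNA gene Mir6973b. Sdc3, which encodes a heparan sulfate proteoglycan that binds GDNF, had a replicate 2 peak alone (fold 2.65). Pspn, Gfra3, Gfral and Gdf15, the last pair being the receptor and ligand of a hindbrain RET pathway, had no peak.

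The paralogs of KIT and their ligands had a peak in both replicates at 6 of 11 genes (54.5%, against 24.0% of all genes). The folds were 3.72 and 6.62 at Flt3, 3.54 and 5.22 at Pdgfa and 3.61 and 5.03 at Pdgfb in replicates 1 and 2. Flt3 is a cytokine receptor of blood progenitors, and its reproducible peak was centred 28 bp from the TSS. Pdgfra, the neighbour of Kit in the same receptor cluster, had folds of 3.52 and 4.27. Csf1r and Pdgfrb had no peak.

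Downstream of the receptors, a list of feedback and turnover genes had peaks at 17 of 25 genes in both replicates (68.0%, against 24.0% of all genes). Socs1, an inhibitor of cytokine and receptor signalling, had folds of 6.50 and 8.29 in replicates 1 and 2. Spry1, which restrains Ras signalling and is known to limit RET in the kidney, had 3.38 and 9.76. Spred3 had 5.24 and 8.28, but the authors assigned the reproducible peak there to Fam98c. Adaptors and Ras-MAPK kinases had peaks in both at 12 of 34 genes, with folds of 5.11 and 8.53 at Grb10, 5.14 and 7.64 at Gab1 and 4.76 and 5.13 at Dok6. All 3 encode adaptor proteins of receptor tyrosine kinases. The share of this list, 35.3%, was near the 30.9% of all genes in the length range of the 6 genes, and its median gene spans 62.1 kb. The PI3K-AKT-mTOR list, with a median gene of 68.6 kb, had 10 of 25 (40.0%), with folds of 3.67 and 6.19 at Foxo1, 3.60 and 4.73 at Foxo3 and 3.18 and 4.20 at Pik3r1. The kinase genes Pik3ca, Akt2 and Mtor had no peak in either list. Median mean fold of the genes with a peak in both was 4.85 in the feedback list, 3.35 in the adaptor list and 3.22 in the PI3K list, beside 3.84 over all genes.

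Factors listed upstream and downstream of the receptors, not all of them germ cell factors, also carried INO80 peaks. Factors that respond to GDNF in mouse spermatogonial cultures had peaks in both replicates at 11 of 13 genes (84.6%, against 24.0% of all genes). Pou3f1 (folds 4.88 and 7.44), Egr3 (3.76 and 7.68) and Egr2 (4.67 and 6.63), all transcription factor genes, were the 3 highest of the list by mean fold over replicates 1 and 2. In replicate 1 alone Eomes, at 4.65, stood above Egr3. Etv5, a central target of GDNF in stem cells, had only 2.85 and 2.95, and Bcl6b and Ccnd2 had no peak. Regulators of Kit had peaks in both at 8 of 14 genes (57.1%, against 24.0% of all genes). Tal1, which acts on Kit in blood progenitors, had folds of 6.48 and 7.27, Dmrt1 3.83 and 5.54 and Neurog3 3.13 and 5.72. Zbtb16, a repressor of Kit in undifferentiated spermatogonia, had 2.88 and 5.19. Sohlh1 and Sohlh2, which activate Kit in differentiating spermatogonia, had no peak in either list, and neither had Stra8, Dazl or Nanos3.

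**Figure D5:**
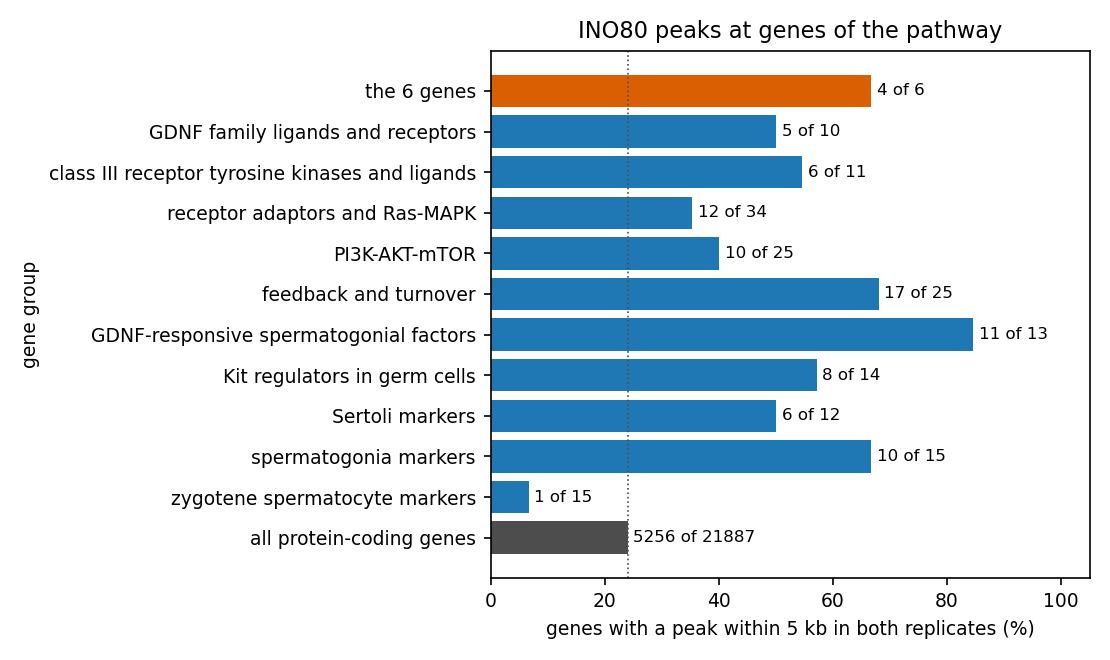
Share of genes with an INO80 peak within 5 kb in both replicates (x axis, %), for the 6 genes (orange), the pathway lists and 3 of the marker lists (blue) and all protein-coding genes (grey, 24.0%, dotted line), with counts beside the bars. The 6 genes stand at 4 of 6, GDNF-responsive factors at 11 of 13, and zygotene spermatocyte markers at 1 of 15. The spermatogonia and Sertoli marker lists share genes with the other groups shown.

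Marker genes of the cells that the preparation could hold were counted in the same way, since Kitl and Gdnf are somatic genes and Kit and Ret spermatogonial ones. Peaks in both replicates lay at 10 of 15 spermatogonia markers, Kit and Ret included, and at 6 of 12 Sertoli markers, against 24.0% of all protein-coding genes. Of these 10, all but Uchl1 are among the 6 genes or in the pathway lists above, so this count largely repeats theirs. Gfra1 was on the spermatogonia list too, with a replicate 2 peak alone. Gata4 stands in both the Sertoli list and the list of Kit regulators. The Sertoli list included Inha (folds 3.62 and 5.89, a peak the authors assigned to Obsl1), Dhh (3.15 and 4.58) and Wt1 (3.54 and 4.16). Leydig markers had 2 of 8, Scarb1 (3.30 and 5.47) and Insl3 (2.72 and 4.32). Peritubular and endothelial markers had 2 of 9, Flt1 (4.75 and 6.36) and Kdr (3.27 and 4.55), and macrophage markers 0 of 6. The shares of the Leydig list (2 of 8) and the peritubular and endothelial list (22.2%) were near that of all genes. Zygotene spermatocyte markers, genes of the labelled cell type, had 1 of 15, Mei1 (3.14 and 5.02). Sycp2, of the same list, had no peak in either replicate. A reproducible peak lay within 5 kb of it, which the authors assigned to Ppp1r3d. Peaks locate a protein on chromatin and do not show which cells were present, and the part of other cell types in the peaks at the 6 genes was not tested.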

How the data were processed

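ChIP-seq of INO80 in synchronised early zygotene spermatocytes was deposited as processed files. Per the submitters' processing notes, MACS2 2.2.7.1, deepTools 3.4.3, SAMtools 1.11, Picard 2.21.2, BWA and fastp were used with GRCm38 and mm10; roles and settings are not given. Per the file headers, read numbers are in units of M reads. The authors deposited a broad peak list per INO80 replicate holding, as the peak caller's own values, −log10 q, −log10 p and fold enrichment. The deposited score equals 10 times the −log10 q, truncated, at all peaks but 1. The authors also deposited 1 peak set from both replicates at an irreproducible discovery rate below 0.05, according to its title, with nearest gene and distance, and a term table with a fold enrichment, p-values and adjusted p-values. The dates in the replicates' peak names differ, and replicate and date cannot be told apart.

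Peak starts were written 1-based. Adding each deposited distance back to its peak centre gave annotated starts at Kit, Kitl and Ret. The protein-coding genes of the autosomes and sex chromosomes came from the RefSeq table of GRCm38.p6, and all 185 listed symbols matched. Of the 2847 reproducible peaks, 2678 had a gene in that table. A peak counted for a gene with a gap of at most 5 kb, and the strongest fold was used. Pairs overlapped by at least 1 bp. Sequences are RefSeq's, cut to the 250 bases before each start. Alternatives were windows of 1 and 10 kb, a q of 0.001 or less, 50% overlap, width-weighted fold and each replicate alone. Python 3.11.15, pandas 2.3.3 and numpy 2.4.6 were used, and interval steps were tested on simulated data. No value has a count behind it, so precision rests on the spread of 2 replicates. Whole-genome enrichment by annotation class and the authors' selected gene lists, which hold none of the 6 genes, were not used.

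The 6 genes and the lists were chosen with earlier results of these data known. Named were all 6 genes, all of the GDNF family list, up to 3 genes per list by mean fold, and the 3 genes nearest in fold to Kit, Kitl and Ret. Other genes named were chosen after their values were seen.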

Additional observations from a re-analysis of the deposited data

How the results depend on the processing

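Counts at the 6 genes did not depend on the window or the q limit. A reproducible peak lay near 3 of them with a TSS window of 5 kb, by position within 5 kb of the gene and when both replicates had to reach a q of 0.001. With windows of 1 and 10 kb and with that q, 4 had a peak in replicate 1, 6 in replicate 2 and 4 in both. Each replicate alone gave 4 to 6 genes. With an overlap of at least 50% of both peaks, 2 of the 5 replicate 1 peaks were shared, those of Kit and Ret, since the replicate 2 peaks are wider. The mean fold of Gdnf was 3.57 when its peaks were weighted by width, since its weaker peaks then enter, and the other genes with 1 peak per list kept theirs. Single replicates gave 4.81 to 7.22 for Kit, 3.95 to 4.88 for Kitl, 4.14 to 6.04 for Ret and 4.08 to 4.11 for Gdnf. Of the 132 pathway genes, 63 had a peak in both replicates with a 1 kb window, against 21.6% of all genes, and 52 with a q of 0.001 or less, against 16.8%. Single replicates gave 75 to 82. No paired analysis was possible because the input libraries have no peak list here and no result comes from a test. With 2 INO80 replicates and no read counts, small differences between genes cannot be resolved.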

Other observations

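Genes outside the pathway shared the fold values of the 3 reproducible peaks. Nearest to Kit in the fold of both replicates, as a distance of log2 fold over 2 samples, were Prkag2 (folds 4.81 and 7.19), a subunit gene of AMP-activated kinase, Bend4 (4.81 and 7.26) and Hr (4.85 and 7.19), a corepressor gene of the hair follicle. Nearest to Kitl were the growth factor gene Igf2 (3.96 and 4.84), Clip1 (3.98 and 4.85) and Imp3 (3.92 and 4.91). Nearest to Ret were Ptges2 (4.17 and 6.05), Sphk1 (4.15 and 6.00) and its neighbour Ube2o, with the same values. Distances ran from 0.006 to 0.016, and all 9 genes had a reproducible peak within 5 kb.

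The Gdnf pair was 1 of 11 overlapping pairs outside the reproducible set with q values at least as strong as at Gdnf. The others lay near Otx1 (folds 5.87 and 4.46), Wnt5a (3.98 and 5.41), Insm1 (4.31 and 6.07), Uncx (4.33 and 5.42) Skor1 (4.30 and 4.80), Pank2 (4.61 and 5.68), Zfp993 (4.32 and 4.55) and the overlapping genes Cmss1 and Filip1l (2.57 and 10.5), and 2 had no protein-coding gene within 1 kb. These genes are named because of where the pairs lay, after their values were seen. The replicate 2 peaks of the 11 pairs had a median width of 4186 bp, and 7 of them were over 3500 bp. The 923 replicate 2 peaks of pairs inside the set had a median of 1778 bp, with 70 (7.58%) over 3500 bp. The width limit was set after the widths were seen. Over the whole replicate 2 list, 64 peaks spanned at least 2 replicate 1 peaks, as at Gdnf, and 38 of these (59.4%) overlapped the set, against 61.1% of the 4592 that spanned exactly 1. Why these pairs were left out was not tested.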
